A study of Tigriopus californicus with 9 samples.

Results

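Heat shock factor is the transcription factor that switches on heat shock genes, and it was followed here in Tigriopus californicus, a copepod that lives in splash pools along rocky shores. It was represented by 1 of 13758 features, SD_As4_Contig993 (Contig993 below), which the deposited tables name heat shock factor protein. Other contigs are likewise given without the prefix of their San Diego identifier. The gene was chosen with its parental difference known, so its values in the parental libraries are a description and carry no test. RNA came from 9 libraries in 4 groups: hybrids with San Diego mothers and Santa Cruz fathers (SDf x SCNm, n = 2), hybrids of the reciprocal cross (SCNf x SDm, n = 2), San Diego animals (SD, n = 3) and Santa Cruz animals (SCN, n = 2). Hybrids had been bred to hybrid generation 3, and each library was a pool of 400 to 500 animals of mixed stages held at 20 °C for 2 h before lysis. No group was heat shocked, so every value is a level at the rearing temperature. Populations were known from field and laboratory work to differ in heat tolerance, the southern San Diego animals surviving hotter water than the northern Santa Cruz animals.

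In animals studied so far, heat shock factor is made in unstressed cells and held inactive, in part by the chaperones it controls. When unfolded proteins occupy those chaperones, the factor is released, forms trimers and binds heat shock elements upstream of the genes for Hsp70, Hsp90, small heat shock proteins and their helpers. Much of this control acts on the protein, through phosphorylation, acetylation and sumoylation, so the RNA level is a measure of supply and not of activity.

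Depth, inferred from the spacing of low values, ran from 4.01 M to 12.2 M reads in the 4 hybrid libraries, from 0.818 M to 14.5 M in SD, and was 3.17 M and 1.30 M in SCN. Features without a read made up 7.54% of SD replicate 3 and 8.20% of SCN replicate 2, both of sequencing run 3, but at most 0.671% of any other library. Run 1 held SD replicate 1 and SCN replicate 1, run 2 held SD replicate 2, run 4 held SDf x SCNm replicate 1, and run 5 held the remaining 3 hybrid libraries. No run held both parents and hybrids, so a difference between runs and a difference between hybrids and parents cannot be told apart. Titles assigned the crosses, since the source label of both SCNf x SDm libraries gives the other direction. The labels do not state whether replicates were separate cultures, so a p-value here reflects how these libraries vary, which could be technical. In pools of whole animals, fewer cells of a type and less RNA per cell cannot be told apart.

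Heat shock factor was most abundant in SD, intermediate in both crosses and least abundant in SCN. Levels are the deposited RPKM, which scale reads by contig length and by library depth. The contig stood at 134 and 151 RPKM in SDf x SCNm replicates 1 and 2 (143 ± 11.7, SD of replicates, n = 2). It stood at 143 and 105 RPKM in SCNf x SDm replicates 1 and 2 (124 ± 27.0, n = 2). The SD libraries had 233, 327 and 272 RPKM in replicates 1, 2 and 3 (277 ± 47.1, n = 3), and the SCN libraries 70.6 and 67.3 RPKM (69.0 ± 2.32, n = 2). The lowest SD library lay above the highest hybrid library, and the lowest hybrid library above both SCN libraries, while the crosses overlapped each other. Such an order without overlap, SD above all hybrids above SCN, was found in 208 features, or 1.51% of the 13758. Taken pair by pair, SD was above SCN without overlap in 19.8% of features, hybrids below SD in 13.3% and hybrids above SCN in 18.4%.

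**Figure D1:**
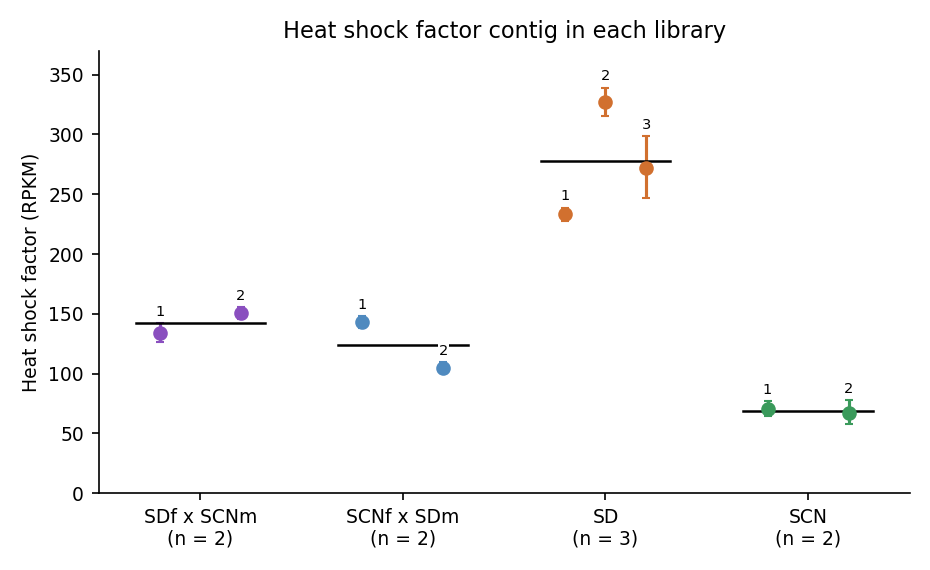
Level of the heat shock factor contig in RPKM (vertical axis, from 0) in each of 9 libraries, by group, with numbers giving the replicate, black lines the group means and bars the 95% Poisson interval of the reads. The 4 hybrid libraries lie between 105 and 151 RPKM, the 3 SD libraries between 233 and 327, and both SCN libraries near 69.0.

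Counting error was small beside these gaps. The contig was backed by 1066 and 3687 reads in SDf x SCNm, 3243 and 2221 in SCNf x SDm, 6440, 2829 and 433 in SD, and 454 and 186 in SCN. Relative to the level, the shallowest parental libraries gave the widest exact 95% Poisson intervals. They were 247 to 299 RPKM in SD replicate 3 and 58.1 to 77.7 RPKM in SCN replicate 2. Intervals cover counting error only, since reads from 1 molecule are not told apart.

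Within each library the contig was among the more abundant features, by a level that takes contig length into account. Its percentile among all features was 87.9 to 92.4 in the hybrid libraries, 95.5 to 96.5 in SD, and 82.7 and 80.2 in SCN. In reads per M it had 266 and 302 in SDf x SCNm and 286 and 216 in SCNf x SDm. It had 445, 623 and 529 in SD, and 143 in both SCN libraries. Contig length is the same in every library, so reads per M repeat the RPKM order and are no separate check. Divided by the median RPKM of its library, the contig stood at 5.19 and 5.65 in SDf x SCNm and 4.43 to 5.45 in SCNf x SDm. That value was 9.25 to 13.95 in SD, and 2.89 and 4.13 in SCN, so SCN replicate 2 lay close below the lowest hybrid library. Averaged over 9 libraries it had 167 RPKM, the highest level among 8 stress-responsive transcription factors found by protein name. Next came ATF-6 alpha (Contig286cap), the sensor of misfolded protein in the endoplasmic reticulum, at 70.8 RPKM. NFE2L1 (Contig8508), which raises proteasome genes in mammals, followed at 41.6 RPKM, and cap-n-collar (Contig1594cap), a regulator of antioxidant genes in flies, at 25.0 RPKM. Hypoxia-inducible factor 1 (Contig10191_2) and metal regulatory transcription factor 1 (Contig16910) had 7.02 and 5.40 RPKM.

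SD and SCN differed in heat shock factor by 1.98 on the log2(RPKM + 1) scale (SE 0.33, 95% interval 1.26 to 2.70), a 3.94-fold higher level in SD. The median of all features was 0.23 higher in SD, which leaves 1.75 relative to it. Called features, those with a limma Benjamini-Hochberg adjusted p under 0.05, numbered 24 higher in SD (0.174% of features) and 35 lower (0.254%). That split moved with the scaling, to 29 and 66 with quantile normalization, 17 and 57 with median-of-ratios scaling and 4 and 49 with voom on recovered reads. The contig was among those higher, which is part of how it was chosen. It was called in 7 of 21 alternatives, among them the fit without a filter, which equals the main fit since 0 features were removed. It was not called with median-of-ratios scaling, with voom, with the replicate block, without the variance trend or with only the groups compared. Nor was it called when any 1 of the SD or hybrid libraries was left out. These calls describe values known when the gene was chosen and are not a test of it. Within run 1 the levels were 233 RPKM in SD replicate 1 and 70.6 in SCN replicate 1, a log2 difference of 1.71 where the median feature differed by 0.02. Within run 3 they were 272 RPKM in SD replicate 3 and 67.3 in SCN replicate 2, a difference of 2.00 where the median feature differed by 0.46. Without both run 3 libraries the difference was 1.95. The values within a run and without run 3 set 1 or 2 SD libraries against 1 SCN library, and in the fits without run 3 that library is assumed to vary like the other groups.

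Hybrids sat near the middle of the parental range on the log2 scale. Placed between the SCN mean (0%) and the SD mean (100%), SDf x SCNm replicates 1 and 2 lay at 48.1% and 56.5%, and SCNf x SDm replicates 1 and 2 at 52.7% and 30.3%. The hybrid mean of 133 ± 20.0 RPKM (n = 4) lay close to the midparent of 138 RPKM, the point halfway between both parental means in log2 units. The difference of hybrids from that midparent was -0.06 (SE 0.24, 95% interval -0.60 to 0.47), against a median of 0.15 over all features. On the linear scale the midpoint of the parents was 173 RPKM, and every hybrid library lay below it. Hybrids differed from SD by -1.05 (SE 0.27) and from SCN by 0.93 (SE 0.31) on the log2 scale. These values use the parental libraries for which the gene was chosen and are given without a test.

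The comparison of the crosses uses only hybrid libraries, which do not enter the parental difference known when the gene was chosen. Earlier results of these data were also known then, so the p-value below does not come from an independent choice. The crosses share nuclear genomes of both populations and differ in the maternal line, and with it in the mitochondria. Heat shock factor differed between SDf x SCNm and SCNf x SDm by 0.21 on the log2 scale (SE 0.36, 95% interval -0.58 to 1.00, limma adjusted p = 1.00, unadjusted p = 0.563). For comparison, the replicate SD on that scale was 0.12 in SDf x SCNm and 0.31 in SCNf x SDm, and 0.22 pooled over the 4 groups. The interval leaves room for up to a 2.01-fold higher level in SDf x SCNm or a level as low as 0.670 times that in SCNf x SDm. Within run 5, the only run with both crosses, the difference was 0.30 (1 SDf x SCNm and 2 SCNf x SDm libraries). SCNf x SDm replicate 2, the lowest hybrid library at 105 RPKM, set the sign: without it the difference was -0.0088. Over all features limma called 0 (0.00%) between the crosses, and voom on recovered reads also called 0. An unadjusted limma p under 0.05 was found for 39 features (0.0945% of all higher and 0.189% lower in SDf x SCNm). That is far fewer than this threshold passes when nothing differs, so the test was conservative here. Its spread is shared with the parental libraries, and with only the crosses fitted the SE of heat shock factor was 0.28. The 0 calls therefore do not show that the crosses are alike.

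**Figure D2:**
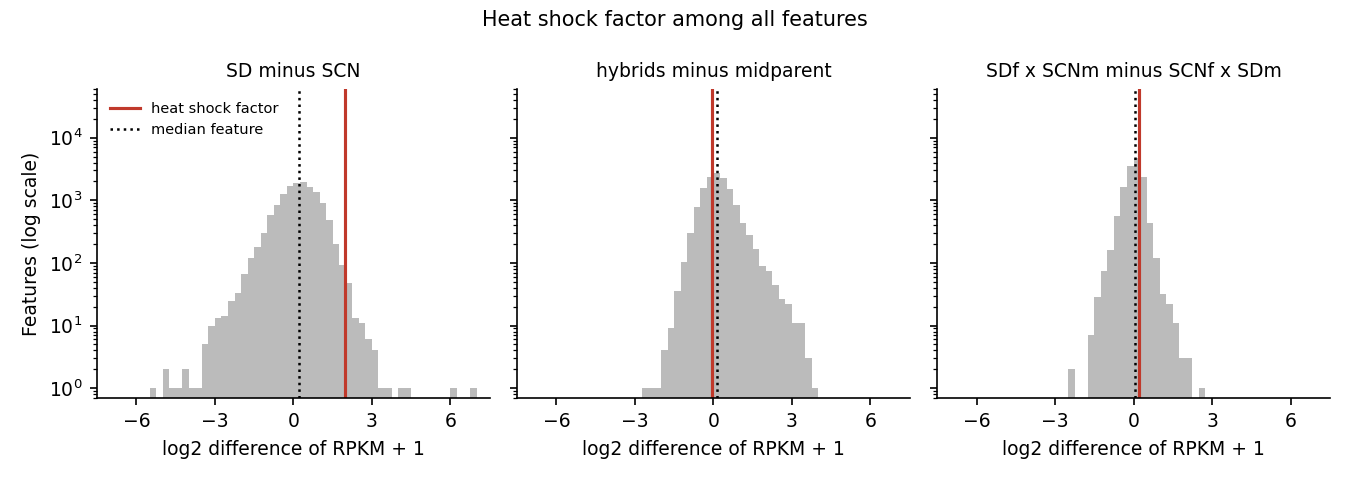
Number of features (vertical axis, log scale) by log2 difference of RPKM + 1 (horizontal axis) in 3 comparisons, with heat shock factor as a red line and the median feature dotted. Heat shock factor lies at 1.98 in the upper tail of SD minus SCN, and near the centre at -0.06 in hybrids minus midparent and at 0.21 in SDf x SCNm minus SCNf x SDm.

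Heat shock factor-binding protein 1 binds the trimers of the factor and counters its activity in mammals and nematodes. The contig named for it (Contig21037) did not share the order of heat shock factor. It stood at 150 and 95.9 RPKM in SDf x SCNm, 70.1 and 109 in SCNf x SDm, 38.6, 45.0 and 69.3 in SD, and 55.1 and 211 in SCN. SD libraries reached at most 69.3 RPKM, on 20 reads in SD replicate 3, and the SCN libraries lay on both sides of that value. The lowest hybrid library had 70.1 RPKM, so hybrids and SD were not clearly apart. The log2 difference was -1.11 for SD minus SCN (SE 0.55, limma adjusted p = 0.316) and 0.48 for hybrids minus midparent (SE 0.40, limma adjusted p = 0.589), neither past the threshold, on 20 to 433 reads per library. Without both run 3 libraries these differences were -0.39 and 1.08. The level of heat shock factor divided by that of its binding protein was 0.896 and 1.57 in SDf x SCNm and 2.04 and 0.967 in SCNf x SDm. It was 6.03, 7.26 and 3.92 in SD, and 1.28 and 0.318 in SCN. The SD ratios were thus all above those of the other 6 libraries, which overlapped one another, although this ratio contains the heat shock factor values for which the gene was chosen.

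The genes around heat shock factor were grouped by protein name: 48 features of the chaperone families it controls in other animals, and 55 that regulate it or act with it at heat shock genes. With the binding protein these made 104 features. Limma called 0 of the 104 for SD minus SCN, where 0.429% of all features were called. It called 0 for hybrids minus midparent, where 0.800% were (0.792% above and 0.00727% below). Between the crosses it called 0, and voom called 0 in each comparison. At an unadjusted p under 0.05 there were 24 of 104 higher and 1 lower for SD minus SCN, where 12.3% and 5.25% of all features were. There were 6 above and 6 below the midparent (13.1% and 3.40% of all features), and 0 higher and 1 lower between the crosses (0.0945% and 0.189%). These counts turned on SCN replicate 1. Without it, which leaves SCN with 1 library and takes the spread from the other groups, 29 of the 104 were called in SD minus SCN (23 higher and 6 lower) and 21 in hybrids minus midparent (10 above and 11 below), as 3085 (2490 higher and 595 lower) and 2985 of all features were.

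Of the 48 chaperone genes, 29 were above 0 in SD minus SCN with a median of 0.34, against 0.23 for all features. Without both run 3 libraries 32 were above 0 with a median of 0.31, against -0.03 for all features. The Hsp70 family, ATP-driven chaperones that also keep heat shock factor inactive, had a median of 0.40 over 12 members. Its most abundant member (Contig69610_3) had 1142 and 1167 RPKM in SDf x SCNm, 767 and 667 in SCNf x SDm, 786, 1777 and 834 in SD, and 817 and 1174 in SCN. The groups overlapped, with a log2 difference of 0.10 for SD minus SCN (SE 0.45, limma adjusted p = 0.926). Heat shock protein 4 (Contig728_2), an Hsp110-type partner that recharges Hsp70, had a profile closer to that of heat shock factor. It had 204 and 221 RPKM in SDf x SCNm, 289 and 158 in SCNf x SDm, 409, 481 and 378 in SD, and 176 and 209 in SCN (SD minus SCN 1.13, SE 0.36, limma adjusted p = 0.173). SD libraries were the highest and the other groups overlapped, in a gene picked here after its values had been seen. Of all features, 19.8% had SD above SCN without overlap and 13.3% had hybrids below SD without overlap.

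Hsp90 (Contig162_2), the chaperone that matures kinases and receptors and holds heat shock factor in its resting form, had 1285 and 938 RPKM in SDf x SCNm and 1493 and 950 in SCNf x SDm. It had 942, 1900 and 717 RPKM in SD, and 1097 and 558 in SCN (SD minus SCN 0.47, SE 0.52, limma adjusted p = 0.662). No group stood apart. Both Hsp90 contigs were above 0 in SD minus SCN, with a median of 0.66, and without both run 3 libraries that median was 0.02. Small heat shock proteins, which hold unfolded proteins without ATP, had a median of -0.24 over 6 members, and of -0.04 without both run 3 libraries. The most abundant (Contig13370_2, heat shock protein beta-1) had 422 and 420 RPKM in SDf x SCNm, 364 and 622 in SCNf x SDm, 249, 199 and 307 in SD, and 332 and 455 in SCN. The SD libraries were the lowest, and hybrids and SCN overlapped (SD minus SCN -0.65, SE 0.38, limma adjusted p = 0.391). SD and SCN libraries did not overlap, in either direction, in 29.0% of all features.

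Hsp40 proteins deliver substrates to Hsp70. Their 18 contigs had a median of 0.50 in SD minus SCN with 13 above 0, and the most abundant (Contig264cap, DnaJ homolog subfamily C member 7-like) differed by 0.61 (SE 0.36, limma adjusted p = 0.390). The ring-shaped chaperonins Hsp60, Hsp10 and TRiC/CCT, which fold mitochondrial and cytoskeletal proteins, had a median of -0.35 with 2 of 10 above 0. That sign depended on run 3: without its libraries the median was 0.44 with 7 of 10 above 0. Hsp60 (Contig602) illustrates it, with 369 and 476 RPKM in SDf x SCNm, 375 and 275 in SCNf x SDm, 423, 640 and 512 in SD, and 346 and 1219 in SCN. SCN replicate 2 alone was above all others, and in summed level the chaperonins reached 6460 RPKM there, against 1758 RPKM in SCN replicate 1.

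Among the features that regulate heat shock factor or act with it, no member passed the threshold in SD minus SCN. Of these 55 features 48 were above 0 in SD minus SCN, with a median of 0.62. Without both run 3 libraries 50 were above 0 with a median of 0.85. The all-feature medians beside these were 0.23 and -0.03. Enzymes that modify heat shock factor or its partners (16 members) had a median of 0.53. CREB-binding protein (Contig403), an acetyltransferase that acts on the factor in mammals, had 29.3 and 60.1 RPKM in SDf x SCNm and 53.3 and 18.0 in SCNf x SDm. It had 69.4, 107 and 54.5 RPKM in SD, and 37.4 and 11.8 in SCN (SD minus SCN 1.76, SE 0.60, limma adjusted p = 0.192). The SD and SCN libraries did not overlap, as in 29.0% of all features, and the hybrids overlapped both. The PIAS1-like SUMO ligase (Contig510) differed by 0.94 (SE 0.32, limma adjusted p = 0.188), and the SUMO precursor (Contig2815), the most abundant of the group, by 0.48 (SE 0.43, limma adjusted p = 0.584).

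The pause release and chromatin list had the highest median of the lists around heat shock factor. Most of its members are subunits of Mediator, a general complex of RNA polymerase II transcription. Others hold or release the paused polymerase or act on chromatin, and none is particular to heat shock genes. The 31 members had a median of 0.82 in SD minus SCN with 27 above 0, and 1.01 with 31 above 0 without both run 3 libraries. Mediator subunit 15-like (Contig14054), a Mediator subunit that contacts activators, had 32.4 and 31.4 RPKM in SDf x SCNm and 28.2 and 25.4 in SCNf x SDm. It had 36.7, 40.6 and 38.2 RPKM in SD, and 16.1 and 12.0 in SCN (SD minus SCN 1.41, SE 0.32, limma adjusted p = 0.0901, the smallest of the 104 features). SD was above the hybrids and the hybrids above SCN without overlap, an order found in 1.51% of all features. This contig was named for its small p, after its values had been seen. The NELF-A-like contig (Contig381), a subunit of the complex that holds polymerase in its pause, differed by 1.35 (SE 0.36, limma adjusted p = 0.130). The most abundant member, the elongation factor ELL-like (Contig428), differed by 1.61 (SE 0.68, limma adjusted p = 0.265), and its hybrid libraries ranged from 54.4 to 187 RPKM. The trithorax protein ash2 contig (Contig625), part of a histone methyltransferase complex, had 36.7 and 48.8 RPKM in SDf x SCNm, 44.7 and 39.1 in SCNf x SDm, 82.01, 70.8 and 54.9 in SD, and 13.2 and 58.6 in SCN (SD minus SCN 1.25, SE 0.53, limma adjusted p = 0.263). It was the single pathway member called without both run 3 libraries (log2 2.44, limma adjusted p = 0.0366), a fit in which SCN replicate 1, its lowest library, stood alone for SCN.

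**Figure D3:**
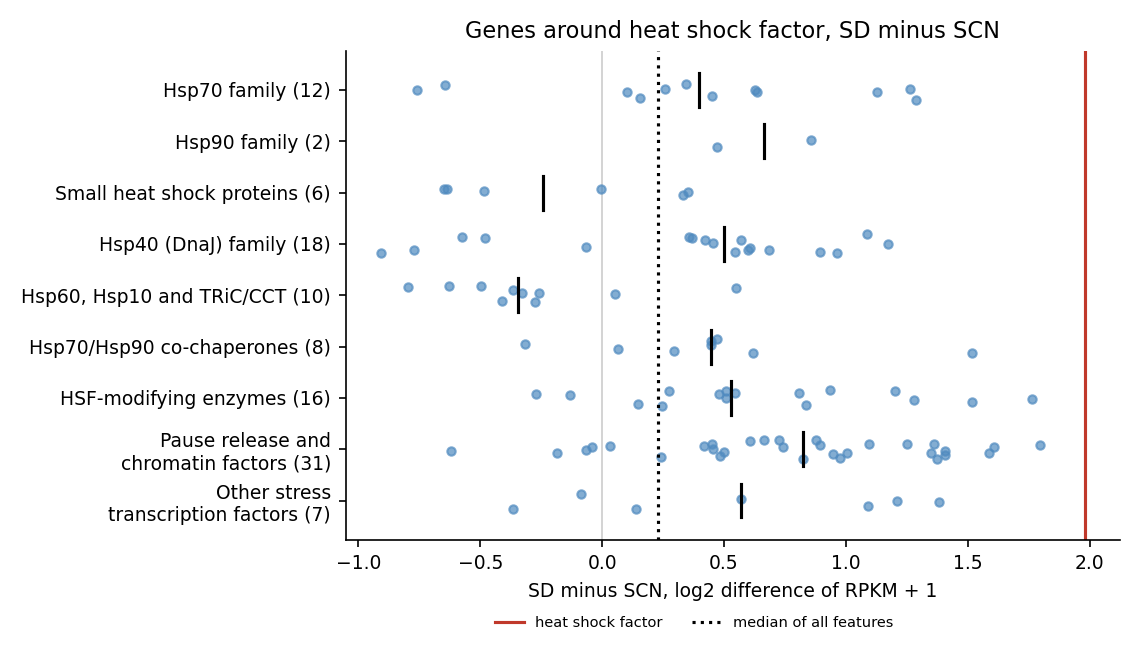
Log2 difference of RPKM + 1 for SD minus SCN (horizontal axis) of each member (points, spread vertically for legibility) of the 9 lists plotted, with list sizes in brackets, black ticks at list medians, the heat shock factor contig as a red line and the median of all features dotted. Every member lies below the 1.98 of heat shock factor, and the plotted list medians run from -0.35 for the chaperonins to 0.82 for the pause release and chromatin factors.

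Co-chaperones of Hsp70 and Hsp90 (8 members) had a median of 0.45 in SD minus SCN. Their most abundant member, the Hsc70-interacting protein (Contig6663), differed by 0.45 (SE 0.41, limma adjusted p = 0.588). Other stress transcription factors had a median of 0.57 over 7 contigs, but -0.15 without both run 3 libraries. ATF-6 alpha had 64.1 and 91.4 RPKM in SDf x SCNm, 81.1 and 56.5 in SCNf x SDm, 75.5, 114 and 76.2 in SD, and 61.8 and 17.1 in SCN. SCN replicate 2 was the low library, whereas heat shock factor was alike in both SCN libraries.

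In hybrids minus midparent the pathway lay about the midparent, like heat shock factor itself, with 47 of 104 above 0 and a median of -0.06, against 0.15 for all features. The chaperonins were below the midparent in 10 of 10 contigs, with a median of -0.56, but in 6 of 10 with a median of -0.14 once both run 3 libraries were left out. The HSP70 contig with the smallest p (Contig1508) lay 1.12 above the midparent (SE 0.35, limma adjusted p = 0.151). It had 22.0 and 29.9 RPKM in SDf x SCNm, 40.3 and 40.3 in SCNf x SDm, 9.03, 15.5 and 8.70 in SD, and 31.5 and 11.1 in SCN. Between the crosses the median of the 104 features was 0.15, against 0.05 for all features. The small heat shock proteins were lower in SDf x SCNm in 6 of 6 contigs with a median of -0.46. The lowest of them, heat shock protein beta-1 (Contig753cap), had 92.6 and 119 RPKM in SDf x SCNm against 204 and 183 in SCNf x SDm, a log2 difference of -0.87 (SE 0.38, limma adjusted p = 1.00).

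Because each library pooled animals of all stages, markers of sex, stage and tissue were read beside heat shock factor. Germline genes, measured by 21 contigs, summed to 1566 to 2074 RPKM in the hybrids, 2673 to 3065 RPKM in SD, and 1748 and 2181 RPKM in SCN. Cell division genes (14 contigs) summed to 868 to 1270 RPKM in the hybrids, 1338 to 1717 in SD, and 944 and 1240 in SCN. In both lists SD libraries were above the others, as they were for heat shock factor. The list medians for SD minus SCN were 0.52 and 0.44, against 0.23 for all features. Called members were 1 of 21 and 0 of 14, where 0.174% of all features were called higher in SD. Hybrid and SCN sums overlapped in both lists. The hybrid medians relative to the midparent were -0.24 and -0.28, against 0.15 for all features. The called germline contig, nanos homolog 2 (Contig4701), had 70.4 and 83.8 RPKM in SDf x SCNm, 49.2 and 61.1 in SCNf x SDm, 80.3, 319 and 84.3 in SD, and 15.02 and 14.6 in SCN (SD minus SCN 3.04, SE 0.54, limma adjusted p = 0.0498). The most abundant germline contig (nanos-like, Contig1840cap), of a family that represses translation in germ cells, had 579 and 515 RPKM in SDf x SCNm, 378 and 396 in SCNf x SDm, 758, 866 and 809 in SD, and 406 and 595 in SCN. Cyclin B (Contig1321), which drives entry into mitosis, was the most abundant division contig, at 224 to 399.8 RPKM in the hybrids, 492 to 538 in SD, and 332 and 552 in SCN. The part of germline and dividing cells in the heat shock factor difference was not tested.

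Yolk genes, which mark egg-bearing females, differed between replicates of a population. Yolk contigs (5) summed to 26145 to 38860 RPKM in the hybrids, 11422 to 33843 RPKM in SD, and 35592 and 3600 RPKM in SCN replicates 1 and 2. The most abundant, a vitellogenin fused with superoxide dismutase (Contig1761cap), had 8238 to 9759 RPKM in the hybrids, 3048 to 8742 in SD, and 11449 and 753 in SCN. Heat shock factor was 70.6 and 67.3 RPKM in those SCN libraries, and the part of egg-bearing females in its level was not tested. Cuticle contigs (86) had a median of -0.10 in SD minus SCN, or -0.85 without both run 3 libraries. They had a median of 1.05 above the midparent, with 9 of 86 called there, against 0.792% of all features, and of 0.73 without both run 3 libraries. The most abundant, a cuticle protein (Contig776cap), had 2010.3 to 8747 RPKM in the hybrids, 1109 to 4353 in SD, and 1613 and 593 in SCN. Muscle contigs (49) had a median of -0.02 in SD minus SCN, or -0.27 without both run 3 libraries, with 0 called. Myosin light chain 2 (Contig1264), the most abundant of them, had 2096 to 3277 RPKM in the hybrids, 1844 to 3605 in SD, and 4188 and 11997 in SCN. Sperm and cilia contigs (32) had a median of 0.45 in SD minus SCN, which turned to -0.16 without both run 3 libraries, with 0 called in the fit of all 9. The most abundant, sperm surface protein Sp17 (Contig6866), had 212 to 239 RPKM in the hybrids, 199 to 231 in SD, and 158 and 68.2 in SCN. Their 1 contig called above the midparent was the intraflagellar transport protein 122-like contig (Contig14540, log2 2.43, SE 0.35, limma adjusted p = 0.0237). No marker contig is listed at 0, since the deposited values hold an added constant, the lowest being 0.244 RPKM.

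The features most like heat shock factor over the 9 libraries were found by Pearson correlation of log2(RPKM + 1) among 8780 informatively named features. Their points share libraries and group differences, so r is a description. The highest r, 0.98 in each case, belonged to myotubularin-related protein 2 (Contig473), a phosphoinositide phosphatase, the SWI/SNF subunit SMARCC2-like (Contig1218), of a chromatin remodelling complex, actin-like protein 13E (Contig3736), Mediator subunit 24 (Contig9233), which is also in the pause release and chromatin list, and a KRAB and C2H2 zinc finger protein (Contig3992). The SMARCC2-like contig had 83.3 and 85.1 RPKM in SDf x SCNm, 84.3 and 63.2 in SCNf x SDm, 110, 132 and 113 in SD, and 51.8 and 41.4 in SCN. Its libraries stood in the same order as those of heat shock factor, SCNf x SDm replicate 2 being the lowest hybrid in both.

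The lowest r belonged to an adipocyte plasma membrane-associated protein (Contig3095, -0.98), a lysophosphatidylcholine acyltransferase 1-like enzyme of phospholipid synthesis (Contig35430, -0.97), a PMP34-like peroxisomal membrane protein (Contig14848, -0.97), ring finger protein 145 (Contig22159, -0.97) and an ectonucleoside triphosphate diphosphohydrolase 4-like enzyme (Contig21010, -0.96). Contig3095 had 36.5 and 30.7 RPKM in SDf x SCNm, 31.4 and 37.5 in SCNf x SDm, 17.7, 15.1 and 21.5 in SD, and 57.3 and 72.4 in SCN. This is the heat shock factor order turned over, with SCN highest and SD lowest without overlap, as in 0.611% of features. An r above 0.9 was found for 170 of the 8780 features (1.94%) and an r below -0.9 for 48, with a median r of 0.20. By list the median r was 0.64 for pause release and chromatin factors, 0.59 for germline markers, 0.58 for cell division markers and 0.56 for HSF-modifying enzymes. It was 0.42 for Hsp40, 0.36 for Hsp90 and for co-chaperones, 0.31 for Hsp70, -0.06 for small heat shock proteins and -0.15 for chaperonins. Other lists had 0.24 (sperm and cilia), 0.17 (yolk), 0.16 (other stress transcription factors), -0.03 (muscle) and -0.13 (cuticle). The binding protein had an r of -0.61.

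**Figure D4:**
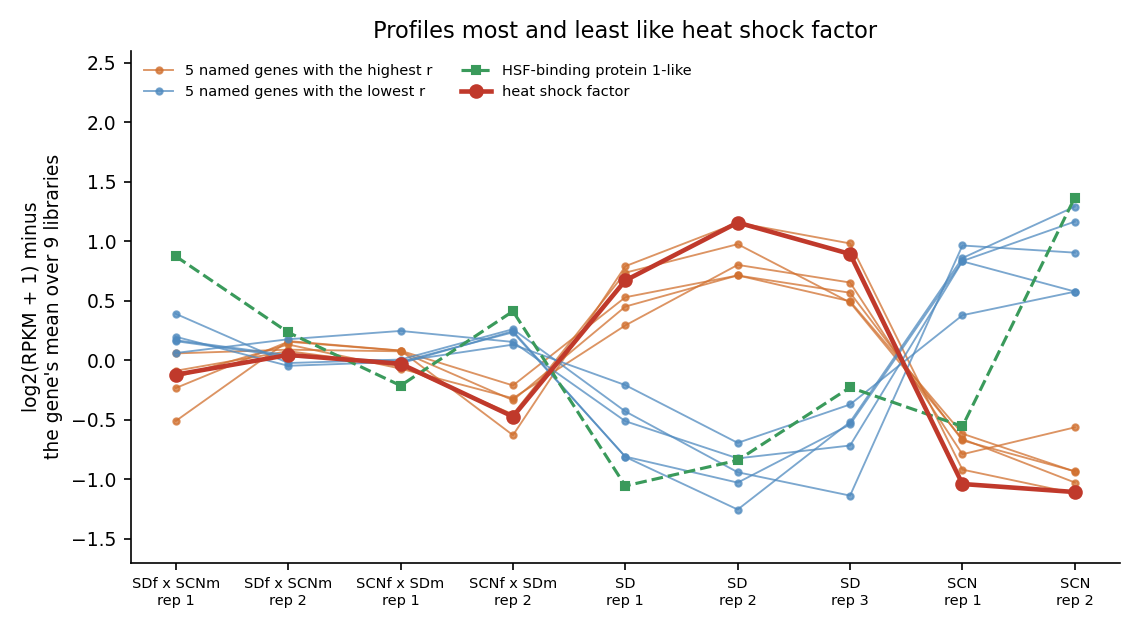
Log2(RPKM + 1) minus each gene's mean over 9 libraries (vertical axis) in each library (horizontal axis) for heat shock factor, the 5 named genes with the highest r to it, the 5 with the lowest, and HSF-binding protein 1-like. The highest-r genes follow heat shock factor, up in the 3 SD libraries and down in the 2 SCN libraries, and the lowest-r genes run the other way, while the binding protein peaks in SCN replicate 2.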

How the data were processed

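PolyA RNA was sequenced from 9 libraries, and the values deposited by the authors are RPKM per feature, per the file headers. The sources used here do not say how reads were aligned and counted, or against the contigs of which population. Low RPKM values lay on even steps, from which whole reads, plus an added constant of 1.12 to 18.4 reads per library, were recovered for 13707 of 13758 features (99.6%), with 99.7% of values within 0.05 read of a whole number. Since the deposited unit is RPKM, these reads served for depth, Poisson intervals and the voom alternative.

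Differences were tested in R 4.3.3 with limma 3.58.1, which was given log2(RPKM + 1), a trended prior variance and 4 group means over all 9 libraries, with Benjamini-Hochberg adjustment over 13758 features at 0.05. Differences are on that scale, which understates those of low features. A planned minimum mean of 1 RPKM removed 0 features, and 0 columns were left unused. Tables and figures were made with Python 3.11.15. The fit was tested on simulated data. Chi-square per feature between replicates ran from 11.7 to 64.0, so none were duplicates within sampling noise.

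The gene, its lists and the tests were chosen with earlier results of these data known. Lists match words in protein names and were trimmed by name. Near-identical family members may share reads. The genes named are heat shock factor, its binding protein, the most abundant member of each list (3 for other stress transcription factors), any called member of the lists around heat shock factor, and the 5 features with the highest and the 5 with the lowest r. Other list members named, the called nanos and intraflagellar transport contigs among them, were picked after their values were seen. No contig identifier matched the gene table used for names, and no sequence or coordinate is given.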

Additional observations from a re-analysis of the deposited data

Results flagged for a closer look

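Among 29 results examined for a hybrid library apart from the other 3, the SMARCC2-like contig (Contig1218) was singled out. Its lowest hybrid library, SCNf x SDm replicate 2, had 63.2 RPKM, against 83.3 to 85.1 RPKM in the other 3, a gap of 0.916 of the whole range where 0.829 is the critical value for 4 samples. Chance gives such a value in about 1 of 20 groups. Heat shock factor was also lowest in that hybrid library, at 105 RPKM, without passing the same criterion. Contig1218 was examined for its high r with heat shock factor over these libraries, so a shared lowest library is no separate result.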

How the results depend on the processing

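In SD minus SCN heat shock factor ranged from 1.70 (median-of-ratios scaling) to 2.10 in 21 alternatives, with 1.76 for voom. Relative to the median feature it had 1.51 to 2.00. Alternatives that change only the filter, the variance trend or the hybrid libraries leave the value as it was. The gene was chosen with this difference known, so its sign and calls here are no support. Heat shock factor was among the called features in 7 of the 21. Hybrids minus midparent ranged from -0.23 to 0.05 for it in 19 alternatives. Between the crosses it ranged from -0.0088 (without SCNf x SDm replicate 2, a reversal of sign) to 0.43 in 22 alternatives, with limma adjusted p from 0.726 to 1.00.

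Calls over all features were less stable. For SD minus SCN, 59 as reported, they were 95 with quantile normalization, 7 with only the groups compared, 10 with a replicate block, 161 with a run block in the parental libraries, and 11 to 3085 with 1 library left out, the highest without SCN replicate 1. For hybrids minus midparent, 110 as reported, they were 172 with quantile normalization, 193 with a pseudocount of 5, 55 with a replicate block, and 0 to 2985 with 1 library left out. Pathway members called in SD minus SCN were 0 to 29 with 1 library left out: 29 without SCN replicate 1 and 1 (ash2) without SCN replicate 2. They numbered 1 (ash2) without both run 3 libraries and 1 with a run block (an HSP70, Contig4361_2, lower in SD). In hybrids minus midparent they were 0 to 21, the highest without SCN replicate 1. Leaving out either SCN library, or both run 3 libraries, leaves SCN with 1 library that is assumed to vary like the other groups. The cause was not tested.

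Replicate numbers were not used as pairs in the main fit. Same-numbered libraries had correlations of -0.55 to 0.36 in their deviations from group means. In a group of 2 these deviations mirror each other, so such values cannot settle whether replicates are paired. The SD and SCN libraries of run 1 had a correlation of 0.23, and those of run 3 of 0.32. With the replicate block, heat shock factor had 1.99 in SD minus SCN, -0.07 in hybrids minus midparent and 0.21 between the crosses. A crossed replicate block in the 4 hybrid libraries, which like voom was chosen after seeing the data, called 41 features between the crosses, and heat shock factor had a limma adjusted p = 0.726. Of the 10 genes most and least like heat shock factor, 9 kept an r past 0.9 in size by Spearman ranks and 10 without both run 3 libraries. The planned count test was not run, as the unit is RPKM. Depth limits the run 3 libraries most.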

Other observations

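SD replicate 2, the library with the most heat shock factor (327 RPKM), also had the most RNA of several heat shock genes, a pattern noticed after the values had been seen. The Hsp70 family summed to 5314 RPKM there, against 2604 and 2556 RPKM in SD replicates 1 and 3, and the Hsp90 contigs to 2307 RPKM, against 1151 and 861 RPKM. An Hsp70 contig (Contig4361_2) had 622 RPKM in SD replicate 2 and 42.1 and 34.5 RPKM in the other SD libraries. The endoplasmic reticulum chaperone GRP78 (Contig1131_2) had 765 RPKM there, against 177 and 88.2 RPKM. Others went the other way: heat shock protein beta-1 (Contig13370_2) had 199 RPKM there, against 249 and 307 RPKM. Co-chaperones summed to 674 RPKM there, against 754 and 741 RPKM. Run 2 held SD replicate 2 only, so the run and the sample cannot be told apart. Without SD replicate 2 the SD minus SCN value of heat shock factor was 1.85 on the log2 scale, and it was not called.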
